A study of Mus musculus with 3 samples.

Results

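Divergent protein-coding promoter pairs were examined in 4 mouse leukemia cell lines by ATAC-seq. In this assay a transposase cuts accessible DNA and tags the cut ends for sequencing, and stretches with many cuts are called as peaks. A pair was 2 protein-coding genes of the GENCODE annotation on opposite strands, pointing away from each other, with 5′ ends at most 1000 bp apart on an autosome of mm10. The members were chosen by gene position, and no measured value entered the rule. There were 734 such pairs with 1448 of the 20807 autosomal protein-coding genes. The other genes were 18126 with a single protein-coding promoter, 737 of which faced away from a noncoding gene, and 1233 in neither class. A peak counted for a pair when it overlapped the stretch between the 5′ ends, extended by 200 bp into each gene, by at least 1 bp.

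The pre/pro-B-cell lines arose from bone marrow that had been transduced with a BCR-ABL(p185) retrovirus, and all 4 carried this oncogene. WT lines came from mice with wildtype Cdk6 and K43M lines from mice homozygous for the kinase-inactive CDK6 K43M mutant. Each library was a separate line, with 2 per genotype, so line and library cannot be told apart. WT replicate 2 and both K43M replicates carry their genotype in their labels. The remaining list had no sample label, was assigned to WT from the design text of the series, and is called WT unnumbered. That text describes the first wildtype line as reanalysed. Whether its library was made together with the others is unknown, and the part of this in the genotype comparisons was not tested.

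The lists held 33038 to 39038 peaks and gave no read totals, so depth is unknown. Promoter peaks were present at 6 to 7 of 7 B-lineage markers, with Cd79b lacking in K43M replicate 2. Of the T-lineage markers, Lck had a peak in all 4 lists, while Cd3e, Cd4 and Cd8a had none. Myeloid markers had a peak at 0 to 1 of 5 genes, erythroid markers at 0 to 1 of 4, and other tissues at 0 to 1 of 4. K43M is a point mutation that peak positions cannot check. In bulk material, the share of cells with an open promoter and its accessibility per cell cannot be told apart.

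A divergent promoter drives 2 genes from 1 short stretch of DNA that is usually rich in CpG dinucleotides and poor in TATA boxes. The stretch between the starts is kept free of nucleosomes, and the first nucleosome of each gene sits beyond its own start. Genes for DNA repair, mitochondria, translation and the core histones H2A and H2B are known for this arrangement. An ATAC-seq peak between the starts does not tell which of both genes is transcribed.

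The DNA between the ends is shown for 11 pairs as the plus strand of mm10, from the 5′ end of the minus-strand gene to that of the plus-strand gene. In each name the minus-strand gene comes first. Capitals mark the letters of the NRF-1, ETS, SP1, NFY, YY1, E-box, CRE or TATA motif searched, on either strand. The first 2 belong to a fixed panel of textbook pairs, Brca1/Nbr1 at chr11:101551955-101552149 and Mrps12/Sars2 at chr7:28741820-28741992.

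Brca1/Nbr1: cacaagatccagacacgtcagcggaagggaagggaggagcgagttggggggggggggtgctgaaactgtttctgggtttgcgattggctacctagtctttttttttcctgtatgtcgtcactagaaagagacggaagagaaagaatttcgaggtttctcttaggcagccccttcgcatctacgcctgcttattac
Mrps12/Sars2: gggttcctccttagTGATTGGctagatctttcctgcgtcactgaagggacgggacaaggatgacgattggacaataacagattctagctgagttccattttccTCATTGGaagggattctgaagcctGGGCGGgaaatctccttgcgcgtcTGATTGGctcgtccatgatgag

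The next 3 carry a gene of the electron transport chain or ATP synthase: Ndufa8/Morn5 at chr2:36049406-36049458, Sdhd/Timm8b at chr9:50603812-50603910 and Atp5h/Kctd2 at chr11:115419962-115420128. The capitals are GGGCGG or its complement for SP1, CCGGAAG for ETS and CCAATGA for NFY.

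Ndufa8/Morn5: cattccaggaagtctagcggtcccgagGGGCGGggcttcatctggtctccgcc
Sdhd/Timm8b: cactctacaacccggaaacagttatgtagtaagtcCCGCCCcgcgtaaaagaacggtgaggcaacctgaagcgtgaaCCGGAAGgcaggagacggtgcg
Atp5h/Kctd2: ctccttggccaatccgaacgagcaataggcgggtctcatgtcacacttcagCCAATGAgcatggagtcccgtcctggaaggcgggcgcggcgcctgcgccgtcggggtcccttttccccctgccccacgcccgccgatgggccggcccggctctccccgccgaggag

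Histone pairs Hist1h2bl/Hist1h2ai at chr13:21716143-21716422 and Hist2h2ac/Hist2h2be at chr3:96220880-96221119 are shown for their CCAAT and TATA letters.

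Hist1h2bl/Hist1h2ai: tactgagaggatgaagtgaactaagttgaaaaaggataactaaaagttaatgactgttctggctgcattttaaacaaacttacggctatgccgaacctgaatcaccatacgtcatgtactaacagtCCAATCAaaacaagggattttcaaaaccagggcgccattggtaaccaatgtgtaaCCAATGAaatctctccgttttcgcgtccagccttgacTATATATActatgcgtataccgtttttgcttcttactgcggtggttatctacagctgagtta
Hist2h2ac/Hist2h2be: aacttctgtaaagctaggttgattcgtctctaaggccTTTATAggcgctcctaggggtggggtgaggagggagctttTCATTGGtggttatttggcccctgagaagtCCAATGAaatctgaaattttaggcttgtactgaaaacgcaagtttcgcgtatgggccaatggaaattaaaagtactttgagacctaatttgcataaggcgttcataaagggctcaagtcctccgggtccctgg

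Sgsh/Slc26a11 at chr11:119355536-119355557 and 4921536K21Rik/Dusp18 at chr11:3895098-3895240 had peaks in the K43M lists alone. Rom1/Eml3 at chr19:8929356-8929552 had the widest gap between the genotypes in peak rank. Col4a4/Col4a3 at chr1:82586849-82586921 had no peak.

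Sgsh/Slc26a11: cgtgcacggcaggccCCGCCCa
4921536K21Rik/Dusp18: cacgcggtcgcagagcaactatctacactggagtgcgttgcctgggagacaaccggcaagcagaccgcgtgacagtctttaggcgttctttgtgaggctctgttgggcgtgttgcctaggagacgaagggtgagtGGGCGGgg
Rom1/Eml3: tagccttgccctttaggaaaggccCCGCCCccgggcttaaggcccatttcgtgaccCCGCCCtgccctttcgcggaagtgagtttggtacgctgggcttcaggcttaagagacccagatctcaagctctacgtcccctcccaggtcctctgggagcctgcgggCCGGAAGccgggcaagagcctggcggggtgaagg
Col4a4/Col4a3: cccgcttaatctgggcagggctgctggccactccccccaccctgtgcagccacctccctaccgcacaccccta

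Nearly every divergent coding pair was open in these cells. WT unnumbered had a peak at 670 pairs (91.3%, 95% Wilson interval 89.0 to 93.1%) and WT replicate 2 at 665 (90.6%, 88.3 to 92.5%). K43M replicate 1 had a peak at 678 pairs (92.4%, 90.2 to 94.1%) and K43M replicate 2 at 679 (92.5%, 90.4 to 94.2%). Values for the 4 lists are given in this order from here on. These intervals treat pairs as independent and cover counting error only. All 4 lists had a peak at 663 pairs (90.3%, 88.0 to 92.3%), against 38.1% of the 18860 promoters tested (pairs and single promoters together). Another 7 pairs had a peak in 3 lists, 6 in 2 lists and 7 in 1 list, and 51 (6.95%) had none.

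Single promoters were open far less often. In windows of the same lengths as those of the pairs, a peak was present at 39.1 and 38.9% of them in the WT lists and at 41.8 and 40.5% in the K43M lists. The pairs exceeded them by 52.2, 51.7, 50.6 and 52.0 percentage points in the same order, a mean of 51.6. The difference had the same sign in 4 of 4 libraries, and the exact sign-flip permutation test over libraries gave p = 0.13 (two-sided), the smallest 4 libraries allow. Window length was matched, but the number of coding starts was not. A pair's window holds both of its coding 5′ ends, and a peak at either counted, whereas a single promoter's window is set on its own end. The part of this in the difference, here and within CpG-rich promoters, was not tested. Coding genes facing a noncoding gene lay between, with 70.6, 68.8, 72.6 and 71.8%. Coding pairs exceeded these by a mean of 20.8 points (exact sign-flip permutation p = 0.13, higher in 4 of 4).

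Most of the pairs were CpG-rich, defined as over 50% G and C and a ratio of observed to expected CpG over 0.6 in the 1000 bp around the midpoint. This held for 617 pairs (84.1%), 73.8% of the coding and noncoding pairs and 41.0% of the single promoters. Median G and C content was 60.3% in pairs and 54.2% in single promoters. Among CpG-rich promoters, 96.3, 96.3, 97.4 and 97.4% of the pairs had a peak, against 72.3, 71.7, 77.3 and 75.4% of the single promoters. The mean difference was 22.6 points (exact sign-flip permutation p = 0.13, higher in 4 of 4 libraries). CpG content thus moved with the promoter class, and the difference within CpG-rich promoters was less than that over all promoters.

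The remaining 117 pairs, which were not CpG-rich, had a peak in all 4 lists in 60.7% of cases (51.6 to 69.1%). The corresponding share of single promoters was 13%. Of the 51 pairs without a peak, 36 belonged to these 117 and 15 to the CpG-rich pairs.

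**Figure D1:**
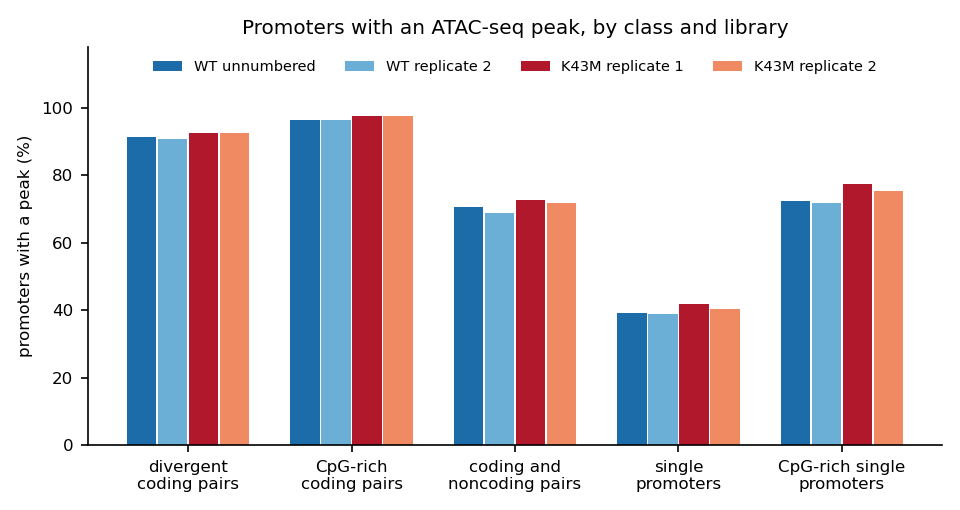
Percent of promoters with an ATAC-seq peak (vertical axis) in 5 promoter classes, with 1 bar per library, and single promoters evaluated in windows as long as those of the pairs. Divergent coding pairs reach 90.6 to 92.5% in the 4 libraries, and single promoters 38.9 to 41.8%.

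Pairs with short spacing predominated. The distance between the 5′ ends ranged from 1 to 987 bp with a median of 128 bp and quartiles of 66.2 and 240 bp. At most 100 bp separated 306 pairs, over 100 and up to 250 bp separated 252, over 250 and up to 500 bp separated 108, and over 500 bp separated 68. Peaks in all 4 lists were found at 93.1, 89.7, 92.6 and 76.5% of these classes, respectively. CpG-rich shares followed a similar order, with 87.6, 86.1, 89.8 and 51.5%. Just inside the limit, Btf3l4/Txndc12 with 987 bp had a peak in 4 lists and Asphd1/Sez6l2 with 981 bp in 3. Just outside, Gpr108/Trip10 with 1009 bp and Sgsm2/Tsr1 with 1011 bp had a peak in 4 lists. Over the 44 pairs separated by more than 1000 and up to 1500 bp, the share was 75%.

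Typically 1 peak covered both starts. The best peak of an open pair, that with the highest −log10 q, spanned both 5′ ends in 93.7 and 93.2% of the open pairs of the WT lists and in 92.9 and 91.8% of those of the K43M lists. In 603 of the 663 pairs open in all lists (91.0%), it did so in every list. Up to 500 bp the share was 93.1% or higher in each distance class and library. Beyond 500 bp it was 43.6, 44.2, 43.1 and 41.4%.

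Of the 52 open pairs separated by more than 500 bp, 20 had a spanning peak in all lists and 26 in none. The best peak covered the start of the minus-strand gene in all lists at 12 of these 26 and that of the plus-strand gene at 10. At the other 4 it covered neither start in at least 1 list or different starts in different lists. Examples chosen after their values were seen are Foxa3/Sympk (839 bp) and Tas1r1/Nol9 (753 bp). Foxa3 encodes a liver transcription factor and Tas1r1 a taste receptor, whereas Sympk acts in mRNA 3′-end processing and Nol9 in ribosome biogenesis. At both, the peak covered the start of the second gene alone.

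Summits lay mostly between both starts. This held for 62.2, 60.9, 61.2 and 59.9% of the best peaks in the 4 lists. Another 18.7, 20.8, 19.9 and 21.2% had the summit inside the minus-strand gene, and 19.1, 18.4, 18.9 and 18.9% inside the plus-strand gene. Within pairs of at most 100 bp, 46.7 to 49.7% of the summits lay between the ends, and in the 3 longer classes 66.4 to 74.1%.

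Peaks at pairs were wider than those at single promoters. The median width was 975 and 930 bp in the WT lists and 984 and 887 bp in the K43M lists. Open single promoters had 837, 800, 817 and 740 bp. The mean difference was 145 bp (exact sign-flip permutation p = 0.13, wider in 4 of 4 libraries), and 110 bp among CpG-rich promoters (p = 0.13 by the same exact test, wider in 4 of 4).

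Reach into the gene bodies showed a difference in shape. From the pair's starts, peaks extended a median of 340 to 387 bp into the minus-strand gene and 344 to 396 bp into the plus-strand gene. A single promoter had a median of 276 to 314 bp upstream and 419 to 486 bp downstream of its start. Its summit lay a median of 23 to 26 bp upstream of the start. Width hardly followed distance, with a Spearman correlation across open pairs of 0.182, 0.147, 0.160 and 0.112 in the 4 lists (665 to 679 pairs that share a library, given as a description).

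Fold enrichment, the authors' ratio of signal to background of the same library at the summit, was also higher. Its median at pairs was 10.6, 10.7, 10.9 and 10.6, and at single promoters 9.81, 9.82, 9.90 and 9.49. The mean difference was 0.939 (exact sign-flip permutation p = 0.13, higher in 4 of 4 libraries) and 0.716 among CpG-rich promoters (p = 0.13 by the same exact test).

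**Figure D2:**
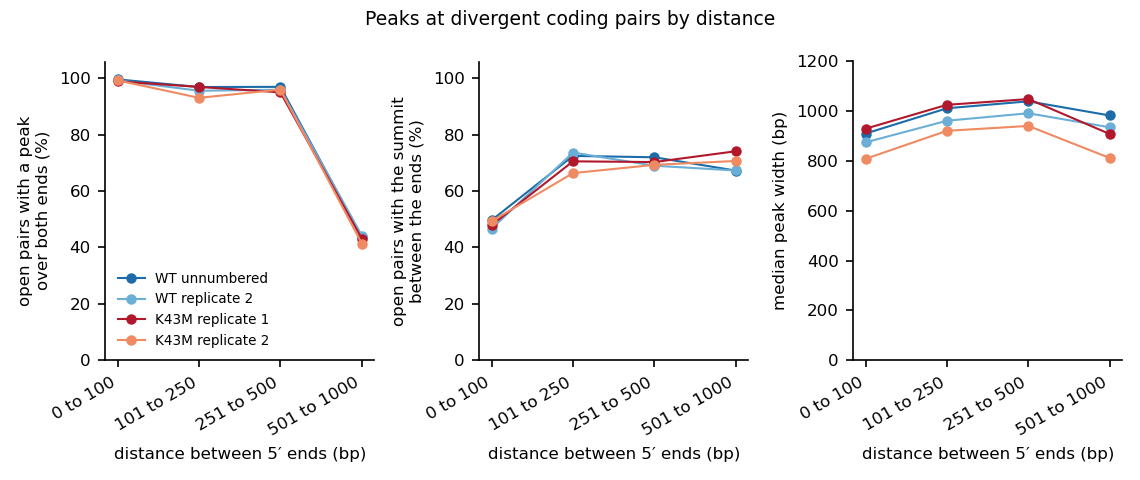
Share of open pairs whose best peak covers both 5′ ends (left), share with the summit between the ends (middle) and median peak width in bp (right), by distance between the ends and with 1 line per library. Spanning peaks make up 93.1% or more of each class up to 500 bp and 41.4 to 44.2% beyond it.

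Motif letters were counted in the window of the pair, which includes 200 bp past each end, on both strands, and in windows of the same lengths at single promoters. ETS letters (CCGGAAG) occurred in 35.8% of the pairs (32.4 to 39.4%) against 12.5% of single promoters. ETS factors include regulators of blood cell genes. Within CpG-rich promoters the shares were 38.1 and 21.7%. YY1 letters (AAGATGGCG), bound by a factor of housekeeping genes, occurred in 8.04 against 2.26%, and in 8.75 against 4.50% within CpG-rich promoters.

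For NFY, the CCAAT-box factor, CCAATCA or CCAATGA occurred in 27.8 against 16.4% and, within CpG-rich promoters, in 28.4 against 17.0%. SP1 letters (GGGCGG) occurred in 81.1 against 49.9%, yet in 84.4 against 84.6% within CpG-rich promoters. NRF-1 is an activator of nuclear genes for mitochondrial proteins, and its letters (GCGCATGC) occurred in 60 pairs, 8.17 against 3.85%, or 8.91 against 6.98% within CpG-rich promoters. The TATA letters (TATAAA or TATATA) were scarcer in pairs, with 9.54 against 27.8%, or 8.27 against 14.1% within CpG-rich promoters.

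The E-box (CACGTG) gave 16.2 against 11.2% and the CRE (TGACGTCA) 5.18 against 2.55%, or 16.5 against 15.7% and 5.51 against 4.21% within CpG-rich promoters. At least 1 of the NRF-1, ETS, SP1, NFY and YY1 motifs was present in 684 pairs (93.2%). Matches of different motifs may share bases, as TATAAA and TATATA can. A match is a description of the sequence and not a bound site.

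Among pairs open in all lists, those with NFY letters had a median percentile of 93.9, against 87.5 for those without. A percentile here is the rank of the best peak by −log10 q within its list, averaged over the 4 lists, with 100 as the strongest. With TATA letters the median was 79.9 against 89.7 without. SP1 letters went with 90.1 against 82.2. The other 5 motifs had smaller gaps. Medians were 90.15 against 88.71 for ETS, 88.54 against 89.32 for NRF-1 and 88.86 against 89.27 for YY1. They were 88.66 against 89.32 for the CRE and 87.55 against 89.55 for the E-box. TATA letters were present in 11 of the 14 histone pairs described below, and the open histone pairs had a median percentile of 63.3. Their part in the TATA gap was not tested. These medians are descriptions over pairs of the same libraries.

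**Figure D3:**
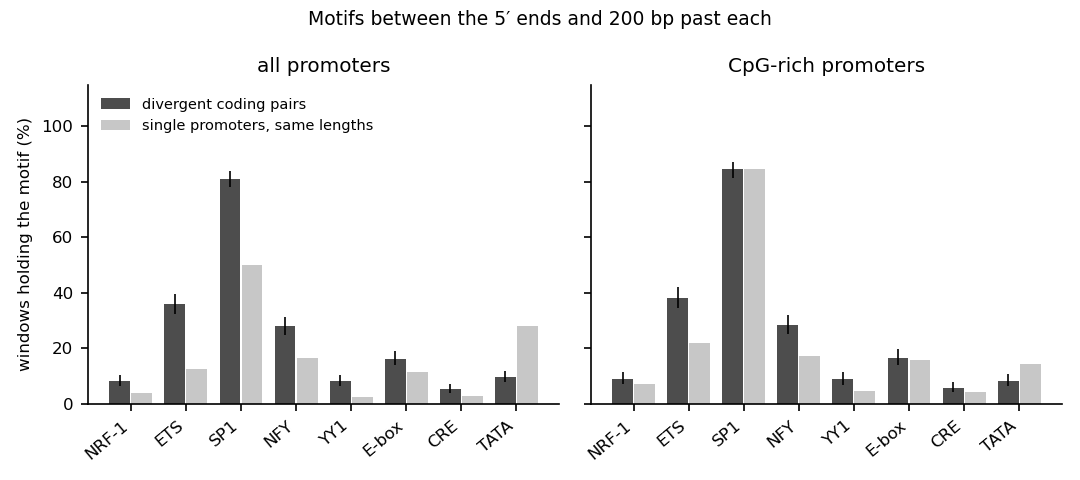
Percent of windows holding each motif (vertical axis) in divergent coding pairs (dark bars, with 95% Wilson intervals) and single promoters in windows of the same lengths (light bars), for all promoters (left) and CpG-rich ones (right). ETS letters occur in 35.8% of pairs against 12.5% of single promoters, and the SP1 gap closes from 81.1 against 49.9% to 84.4 against 84.6% within CpG-rich promoters.

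The first comparison between genotypes concerned the number of open pairs. The mean share of pairs with a peak was 90.9% ± 0.482 (SD, n = 2) in WT and 92.4% ± 0.0963 (SD, n = 2) in K43M. The difference was 1.5 points, and both K43M values lay above both WT values. The exact permutation test gave p = 0.33 (two-sided), the smallest value that 2 against 2 libraries allow. Single promoters differed by 2.15 points in the same direction (exact permutation p = 0.33, 2 of 2 K43M values above both WT values). The pairs' difference minus that of single promoters was −0.652 points (exact permutation p = 0.667). The K43M lists also held more peaks in all, with 39038 and 34752 against 33038 and 34248. With equally long lists the difference was 1.16 points. Lists of equal length do not equalise depth, which is unknown, so its part in the difference was not tested.

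Very few pairs were open in 1 genotype alone. Both K43M lists and neither WT list had a peak at 5 pairs (0.681%, 0.291 to 1.58%), against a background of 1.69% of all promoters tested. Both WT lists and neither K43M list had a peak at 0 of 734 pairs, against a background of 0.456%. The 95% Wilson interval reaches up to 0.521% and includes the background, so the pairs' share cannot be told from it at this number of pairs. Of the promoters open in at least 1 genotype, the 5 pairs were 0.741% of 675, and 313 K43M-only single promoters were 4.24% of 7374. Without WT unnumbered the K43M-only count was 10, without WT replicate 2 it was 7, and without either K43M replicate it was 8. The WT-only count became 1 without WT replicate 2.

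Sgsh/Slc26a11, a lysosomal sulfatase and an anion transporter, had 21 bp between its ends. Fold enrichment was 6.25 in both K43M lists, at percentiles 40.7 and 41.2. The nearest WT peaks ended 255 and 182 bp from the window, so WT lines had a peak close by. 4921536K21Rik/Dusp18, the latter a dual-specificity phosphatase, had fold enrichments of 5.71 and 6.31 at percentiles 21.6 and 31.3. No WT peak lay within 18154 bp.

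Klc3/Ckm pairs a kinesin light chain with muscle creatine kinase over 672 bp (chr7:19404104-19404776). Its fold enrichments were 7.65 and 8.43, at percentiles 57.8 and 67, the strongest of the 5. A WT unnumbered peak lay 514 bp away, and the nearest in WT replicate 2 was 16323 bp away. Lyzl4/Vipr1, the latter the receptor of vasoactive intestinal peptide, had 620 bp between its ends (chr9:121642096-121642716) and fold enrichments of 5.17 and 4.17 at percentiles 23.0 and 5.78.

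Hspa1a/Hspa1l joins the heat-inducible Hsp70 gene with a related chaperone gene over 547 bp (chr17:34972156-34972703). Fold enrichment was 6.5 and 6.25. Hspa1a has a near-identical copy, Hspa1b, and 25.3% of the 50-base words of this window recurred in another promoter window, while the authors removed reads with several positions. This value is therefore uncertain, and without the pair the K43M-only count was 4.

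Pairs with a peak in 1 to 3 lists held weak peaks in general. The 20 pairs had 40 peaks, 7 and 2 in the WT lists and 15 and 16 in the K43M lists. Their median fold enrichment was 5.83 and their median percentile 30.1. All 7 pairs with a peak in 3 lists lacked it in a WT list, 5 in WT replicate 2 and 2 in WT unnumbered. The same split over all promoters was not counted. Promoters as a whole leaned the same way, with 1.69% open in both K43M lists alone and 0.456% in both WT lists alone. These counts are therefore no result about the pairs. Chpf/Tmem198, of which Chpf takes part in chondroitin synthesis, had no peak in WT unnumbered and fold enrichments of 5.15 in the other WT list and 10.3 and 8.30 in the K43M lists. Amdhd1/Ccdc38, of which Amdhd1 acts in histidine breakdown, had none in WT replicate 2, 4.51 in the other WT list, and 11.6 and 6.29 in the K43M lists. Slc25a27/Cyp39a1 lacked a peak in WT unnumbered but had 12.2 in WT replicate 2, above the K43M values of 11.5 and 8.08.

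**Figure D4:**
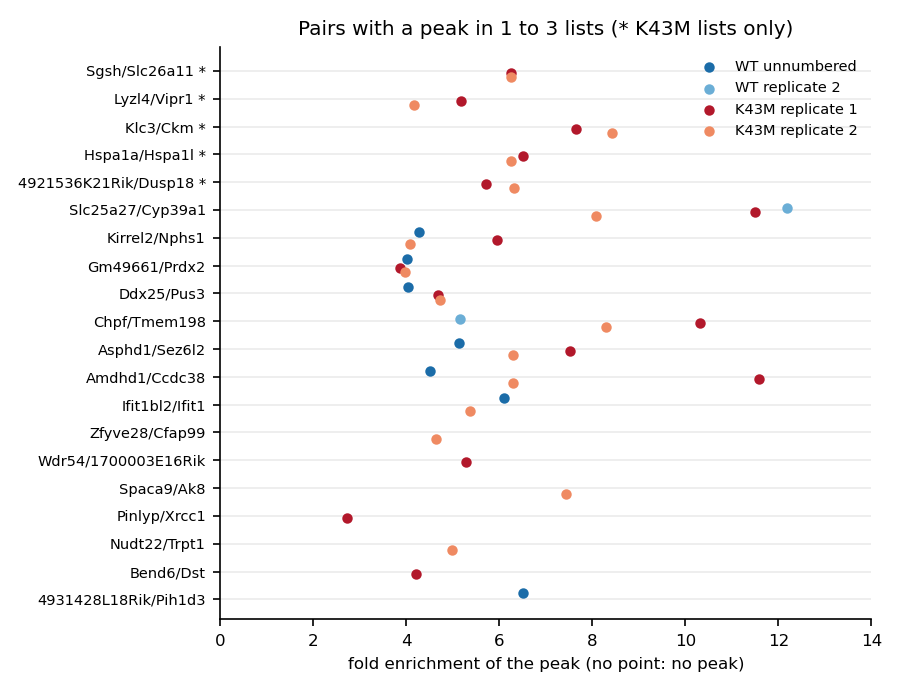
Fold enrichment of the best peak (horizontal axis) in each library at the 20 pairs with a peak in 1 to 3 lists, where no point means no peak and an asterisk marks pairs with a peak in both K43M lists alone. The 5 marked pairs lie between 4.17 and 8.43, and WT replicate 2 has a point at 2 pairs.

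The second comparison between genotypes used peak rank at the 663 pairs open in all lists. Both K43M percentiles lay above both WT percentiles at 165 pairs (24.9%), against 26.3% of all open promoters tested. They lay below at 105 pairs (15.8%), against 15.6%. Both shares were close to the background and are no result about the pairs. With equally long lists the split was 133 above and 136 below, in place of 165 and 105. With a library left out fewer values must agree, and the counts above and below were 258 and 199 without WT unnumbered, 280 and 177 without WT replicate 2, 268 and 221 without K43M replicate 1, and 290 and 178 without K43M replicate 2.

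Rom1/Eml3, a photoreceptor disc protein and a microtubule-binding protein, had the widest gap upward. Its percentiles were 35.3 in WT unnumbered and 42.8 in WT replicate 2 against 70.1 and 77.5 in the K43M replicates, and its fold enrichments 6.21 and 6.14 against 9.02 and 10.1. Pcsk4/Reep6 had percentiles of 75.1 and 62.0 in WT against 96.6 and 95.8 in K43M. Dhrs1/Nop9, the latter a ribosome biogenesis factor, had 57.7 and 62.2 against 79.6 and 79.1. In all 3 the genotypes did not overlap. These pairs were named by the size of the gap, which carries no test.

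Histone pairs ranked lower in the K43M lists. Pairs with at least 1 replication-dependent histone gene by symbol numbered 14, with 12 on chromosome 13 and 2 on chromosome 3. Most join a gene of H2A with one of H2B, core histones made in S phase, but Bola1/Hist2h2ab has 1 histone gene and Hist1h2bh/Hist1h3f joins H2B with H3. Of these, 11 had a peak in all 4 lists and 3 in none. At 9 of the 11, both K43M percentiles lay below both WT percentiles, at 0 they lay above, and at 2 they overlapped. Over all promoters tested that are open in all lists, 15.6% had K43M below WT. The median percentile of the 11 was 73.9 and 74.2 in the WT lists against 53.9 and 53.3 in the K43M lists.

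Hist1h2bl/Hist1h2ai had percentiles of 62.2 and 66.6 in WT against 36.4 and 39.5 in K43M. Its fold enrichments were 6.44 and 6.97 against 5.53 and 5.86. Hist1h2bh/Hist1h3f had percentiles of 75.3 and 75.1 against 49.7 and 53.3, but its best peak lay inside Hist1h3f in the WT lists and over the Hist1h2bh start in the K43M lists. Bola1/Hist2h2ab on chromosome 3 had 53.0 and 56.0 against 37.9 and 36.5. The genotypes did not overlap at any of these 3 pairs. At Hist1h2ag/Hist1h2bj they did overlap, with 59.9 and 66.3 in WT against 63.0 and 48.3 in K43M.

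Chromosome 13 as a whole had lower K43M ranks. Of its 22 other open pairs, 8 had K43M below WT and 3 above, and of its 233 open single promoters without histone genes 39.9% had K43M below WT. Outside chromosome 13, 14% of the 630 pairs without histone genes did. This remainder pools chromosomes 12 and 18, also known to be uneven, which were not counted apart. Pairs with K43M below WT were found there as well, for example Moap1/Tmem251 on chromosome 12 and Hdac3/Rell2 on chromosome 18. Chromosome 12 also had pairs above, such as Gen1/Smc6. Lower K43M ranks are therefore not particular to chromosome 13. When peaks were ranked only against peaks of the same chromosome, the histone count was again 9 of 11, and with a library left out it was 9 to 11. Single promoters of histone genes on chromosome 13 had K43M below WT at 9 of 16 and above at 0, so single promoters there ranked lower as well. Those on other chromosomes showed no common direction, with 3 of 8 below and 3 above.

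The way of ranking mattered. By fold enrichment in place of −log10 q, 4 of the 11 histone pairs had K43M below WT and 1 above. Sequence copies also touch these values, since between 1.38 and 40.7% of the 50-base words of the 11 windows recurred in another promoter window. Hist1h2ap/Hist1h2br and Hist1h2bq/Hist1h2ao, with no peak, had 100% recurring words. The third pair without a peak, Hist1h2ba/Hist1h2aa, encodes testis variants. The part of these copies in the histone result was not tested, and a list picked with its values in view carries no test.

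**Figure D5:**
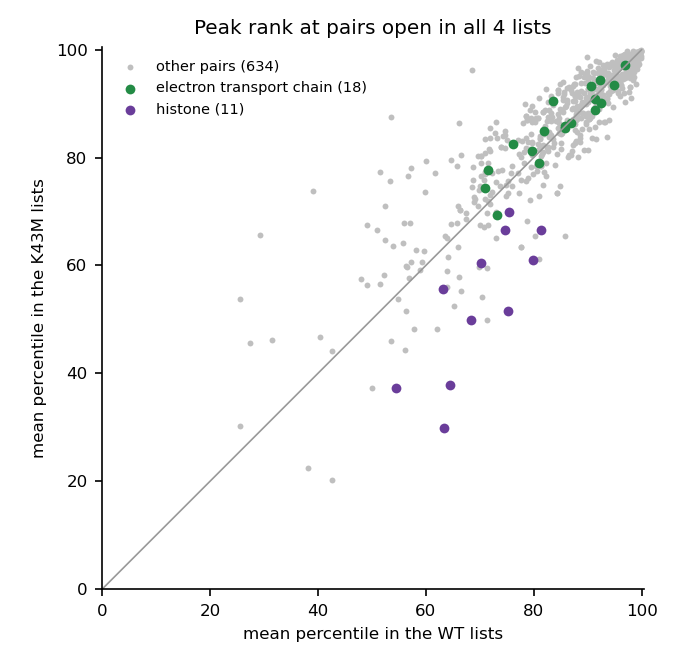
Mean percentile of the best peak by −log10 q in the WT lists (horizontal axis) and the K43M lists (vertical axis) at the 663 pairs open in all 4 lists, with a line of equality. The 11 histone pairs all lie below the line, and the 18 electron transport chain pairs lie along it.

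Electron transport chain and ATP synthase genes, the group of interest in the study of K43M cells, were part of 18 pairs. All 18 had a peak in all 4 lists. Both K43M percentiles lay above both WT percentiles at 3 pairs and below at 1, with 14 overlapping, against 26.3 and 15.6% of all open promoters. The median percentile was 82.6 and 86.7 in WT against 87.8 and 85.6 in K43M. The medians of the genotypes overlapped. The counts above and below became 5 and 5 without WT unnumbered, 7 and 4 without WT replicate 2, 6 and 8 without K43M replicate 1, and 7 and 2 without K43M replicate 2.

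Wdr4/Ndufv3 and Rps28/Ndufa7 were among the 3 above. Wdr4/Ndufv3, a tRNA methylation factor and a complex I subunit, had percentiles of 81.1 and 86.1 in WT against 90.4 and 90.5 in K43M. Rps28/Ndufa7 joins a ribosomal protein and a complex I subunit 10 bp apart, with 73.3 and 79.2 against 80.1 and 85.1. The pair below was Gm27021/Cox4i1, a complex IV subunit, with 90.62 and 92.13 in WT against 87.19 and 90.59 in K43M. Its separation of −0.025 percentile points is close to a tie.

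Atp5h/Kctd2, with an ATP synthase subunit, had fold enrichments of 13.8 and 14.2 in WT against 13.7 and 15 in K43M, so the genotypes overlapped. Sdhd/Timm8b, with a membrane subunit of complex II and a mitochondrial import factor, had 11.6 and 11.2 against 13.2 and 9.27. Ndufa8/Morn5, with a complex I subunit, had 8.87 and 10.5 against 10.2 and 12.3. It was the 1 pair of the 18 with NRF-1 letters, which lie outside the stretch printed above, within 200 bp of an end. ETS letters were present in 6 of the 18 windows, SP1 in 11, NFY in 5 and YY1 in 3.

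Other gene groups were open nearly throughout. Pairs with other mitochondrial genes had a peak in all lists at 32 of 33, replication and repair genes at 25 of 26, translation genes at 19 of 20, proteasome genes at 7 of 7 and zinc finger genes at 17 of 19. The exceptions were Slc25a27/Cyp39a1 with a peak in 3 lists, Pinlyp/Xrcc1 with a peak of fold enrichment 2.71 in K43M replicate 1 alone, and Grik5/Zfp574 and Zfp558/Mbd3l1 with none. The exception in translation was Rnf151/Rps2. At Rnf151/Rps2 and Grik5/Zfp574, another annotated start of a gene of the pair had a peak in all lists. K43M ranks lay above WT at 7, 5, 3, 2 and 5 of the open pairs of these groups and below at 5, 5, 2, 0 and 4, against a background of 26.3% above and 15.6% below, and these few pairs give no result about a group. Over all pairs, 90.3% were open in all lists.

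Pairs with genes of other tissues numbered 4 by symbol. Col4a4/Col4a3, collagens of the kidney basement membrane, and Pcdh12/Rnf14, with an endothelial cadherin, had no peak. At Pcdh12/Rnf14, however, another annotated start of a gene of the pair had a peak in all lists. Polk/Col4a3bp and Nt5c3/Vmn1r4 had peaks in all lists, and the Col4a3bp product is a ceramide carrier and not a collagen.

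Of the textbook panel, 6 pairs met the rule and 5 of them were open in all lists. Brca1/Nbr1, a homologous recombination factor and an autophagy receptor 194 bp apart, had fold enrichments of 9.81 and 9.24 in WT against 9.36 and 9.02 in K43M. Its summit lay inside Nbr1, 712 to 740 bp from the Brca1 end, and the peak was 1347 to 1458 bp wide. None of the 8 motifs was found in its window. Atm/Npat, the DNA damage kinase and a histone gene coactivator 307 bp apart, had 11.4 and 12.5 against 12 and 10.5, with the summit between the ends in every list. Its percentiles did not overlap, with 96.4 and 97.9 in WT against 96.1 and 93.8 in K43M, while its fold enrichments did.

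Mcm4/Prkdc, the helicase subunit and the catalytic subunit of DNA-PK 466 bp apart, had 11.4 and 10.8 against 13.4 and 10.3. Gart/Son, of purine synthesis and splicing, had 8.06 and 9.97 against 7.92 and 8.03. Mrps12/Sars2, of the mitochondrial ribosome and mitochondrial tRNA charging, had 14.9 and 12.7 against 16.3 and 14.1. The genotypes overlapped at 4 of the 5 pairs in fold enrichment. At Gart/Son they did not, whereas its percentiles, 91.1 and 98.4 in WT against 94.2 and 90.7 in K43M, did overlap. With peaks ranked by fold enrichment, K43M lay above WT at 146 and below at 102 of the 663 pairs open in all lists. The 5 panel pairs are too few for a result. Col4a4/Col4a3 was the sixth pair of the panel. Annotated 5′ ends of Hspe1/Hspd1, Hars/Hars2, Paics/Ppat, Surf1/Surf2, Tap1/Psmb9 and Col4a1/Col4a2 overlapped, and those of Cd3g/Cd3d were 1355 bp apart, so these did not qualify.

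Hjurp/Trpm8 ranked highest by −log10 q over all lists, with percentiles of 99.95, 99.95, 99.96 and 99.97. By fold enrichment it was not outstanding. Its values of 9.79, 10.0, 10.5 and 10.3 lay below the medians of open pairs, 10.6, 10.7, 10.9 and 10.6. Hjurp deposits the centromeric histone CENP-A, and Trpm8 encodes a cold-sensing channel that starts 28 bp away. Zfp654/Cggbp1, Nup98/Pgap2 and Rnft2/2410131K14Rik were among the next, each with percentiles of 99.54 or higher in all lists. Nup98 is a nuclear pore protein.

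More than 1 peak in the window was rare. In all 4 lists 7 pairs had 2 peaks in the window, and 30 had 2 in at least 1 list, which need not be 1 peak per start. Dclre1a/Nhlrc2 with 39 bp and Cep44/Fbxo8 with 43 bp were the shortest. Rad51ap1/D6Wsu163e (375 bp), Zbtb25/Zbtb1 (664 bp) and Fig4/Ak9 (720 bp) followed. Rad51ap1 acts in homologous recombination, and its percentiles were 91.4 and 95.9 in WT against 92.6 and 89.5 in K43M.

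The 51 pairs without a peak included genes of other tissues and of germ cells. The shortest were Plcd3/Acbd4 (24 bp), Best1/Rab3il1 (36 bp), S100a1/S100a13 (43 bp), Ppp1r3d/Fam217b (52 bp) and Rnf151/Rps2 (53 bp). Another annotated start of a gene of the pair had a peak in all lists at 15 of the 51, among them Plcd3/Acbd4 and Rnf151/Rps2. The nearest peak in any list lay a median of 6322 bp away and within 1000 bp at 8 pairs. The imprinted genes Peg3 and Peg10 (Peg3/Usp29 and Sgce/Peg10) and the T-cell gene Cd8b1 (Smyd1/Cd8b1) were among them.

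A list of germ-cell genes, made after the values were seen, held 14 pairs. A peak was absent from all lists at 9 of them, among them Smc1b/Ribc2 with a meiotic cohesin subunit and both Stag3 pairs. Dgcr2/Tssk2 is also among the 9, but another annotated start of a gene of this pair had a peak in all lists. A peak was present in all lists at 4 pairs, such as Rad51c/Tex14 and Spata1/Gng5, and in 1 list at Spaca9/Ak8. In each of Rad51c/Tex14 and Spata1/Gng5 the partner is a broadly used gene, of DNA repair and G-protein signalling.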

How the data were processed

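The data were 4 ATAC-seq peak lists, 1 per cell line. According to the study's methods and the submitters' processing notes, the authors trimmed reads with Trimmomatic 0.36, mapped them to mm10 with BWA 0.7.15, removed blacklisted regions and reads with several positions, and called peaks with MACS2 2.1.0 in each library alone. The deposited columns give peak positions, a display score, the authors' fold enrichment (the ratio of summit signal to background), and −log10 p and −log10 q. These values are relative to 1 library. Ranks within a list used −log10 q, or fold enrichment where stated. Fold enrichments of named pairs are also set side by side across libraries. They were not scaled between libraries, so these comparisons are descriptions. The score was not used further, and reads were not analysed here.

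Genes came from GENCODE mouse release 21 on the same build. This annotation is later than the one of the authors. Gene 5′ ends are the outermost annotated starts, and 461 pairs had both ends at a transcript tagged basic. Of the pairs, 40 share a gene with another pair. RefSeq supplied the mm10 sequence. Peak presence was compared over the 4 libraries by two-sided exact sign-flip permutation, and between genotypes by exact permutation of 2 against 2. The smallest p these tests allow are 0.13 and 0.33. Replicates are separate lines. A promoter was open in a genotype when both its lists had a peak, as in the study. Single promoters were evaluated in windows of the lengths of the pairs, and in a window of the median length for width, fold enrichment, rank and counts by genotype. Intervals are 95% Wilson intervals.

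The members, gene lists and tests were chosen with earlier results of these data known, among them that chromosomes 12, 13 and 18 were uneven. Named pairs followed a rule: a fixed panel, all pairs open in 1 genotype alone, the 5 with the best worst percentile, the 5 shortest without a peak, the 5 shortest with 2 peaks in all lists, the pairs of the gene lists, and the widest rank gaps. Pairs outside it were named after their values were seen, and 3 pairs that it names are not reported here. The code was tested on simulated data, where 264 of 264 pairs received the right peak call. Tables were handled in Python 3.11.15 with pandas 2.3.3 and numpy 2.4.6, sequence was read with pysam 0.24.0, tests used scipy 1.17.1, and matplotlib 3.10.9 drew the plots.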

Additional observations from a re-analysis of the deposited data

How the results depend on the processing

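Settings other than those reported changed peaks, distances, windows, promoters and libraries. Of 196 values recomputed, 158 moved by less than the criterion, and no tested difference changed sign. The balance of pairs with K43M ranks above and below WT turned from 165 and 105 to 133 and 136 with equally long lists. At electron transport chain pairs it turned from 3 and 1 to 6 and 8 without K43M replicate 1 and to 5 and 5 without WT unnumbered. The 51.6-point difference between pairs and single promoters ranged from 50.5 to 54.3 and that within CpG-rich promoters from 18.3 to 24.1.

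With the summit required in the window, open pairs were 79.0%, K43M-only pairs 9, WT-only pairs 3, spanning peaks 93.9% and summits between the ends 66.4%. With a largest distance of 500 bp, K43M-only pairs were 2 and spanning peaks 97.4%. Without extension, WT-only pairs were 2. With both ends basic, summits between the ends were 62.1%. With motif windows reaching 50 bp in place of 200 bp past each end, shares were 27.4% for ETS, 68.1% for SP1 and 23.8% for NFY. They were 5.45% for YY1, 11.6% for the E-box and 6.54% for TATA. With 200 bp past each end, SP1 was 84.4% within CpG-rich pairs. With 1 library left out, K43M-only pairs ranged from 7 to 10, WT-only pairs from 0 to 1, pairs with K43M ranks above WT from 258 to 290 and below from 177 to 221. A narrower window or fewer lists to agree gives such shifts by construction, and for the others the cause was not tested.

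The rankings within a chromosome, by fold enrichment and with a library left out, and the counts without Hspa1a, were added after seeing the data. Without chromosomes 12, 13 and 18, K43M-only pairs were 5. No paired analysis was possible because the genotypes share only replicate number 2, which names lines. Peak lists give no read totals, so a missing peak cannot be told from low depth.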

Other observations

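Gene pairs whose annotated 5′ ends overlap, so that both transcripts start within the other gene, fell outside the rule. There were 436 of these overlapping heads, with a median overlap of 321 bp, and they include textbook pairs such as Hspe1/Hspd1 and Surf1/Surf2. A peak overlapped them in 87.2 and 86.5% of cases in WT unnumbered and the other WT list, and in 90.4 and 87.4% in the K43M lists. All 4 lists had a peak at 84.4% (80.7 to 87.5%) and no list at 8.49%. Peaks in both K43M lists alone were found at 7 of them (1.61%, against 1.69% of all promoters tested) and in both WT lists alone at 1 (0.229%, against 0.456%).

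Words of 50 bases that recur in another promoter window were found in 29 of the 734 windows. They made up over 50% of the window in 4 pairs, of which 2 histone pairs had no peak and the zinc finger pairs Zfp944/Zfp758 and Zfp942/Zfp943 had a peak in all 4 lists.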
